A study of Mus musculus with 18 samples.

Results

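CD8 alpha-beta intraepithelial T cells of the small bowel were compared between St8sia6 knockout (KO), heterozygous (het) and wild-type (WT) mice. A cell of the epithelial fraction counted as a member when it held at least 1 Cd3e and 1 Cd8b1 molecule, no Cd4, Trdc, Cd79a or Epcam molecule, and under 20% mitochondrial counts. By this gate 2717 of the 16985 cells of the epithelial fraction were members, out of 60272 cells deposited for all tissues. The intestine of 1 KO, 1 het and 2 WT mice was used in each of 3 runs, so a WT value of a run can hold 2 animals that cannot be separated. Cells of all genotypes went through a Percoll gradient and a CD45 enrichment, and each genotype carried its own hashtag antibody before droplet capture. St8sia6 encodes a sialyltransferase that attaches sialic acid to other sialic acids on glycans. The sex, age and strain of the mice, and the part of St8sia6 that was removed, are not given in the sources used here.

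Intraepithelial T cells lie between the epithelial cells of the gut and act as a barrier defence. Those with the CD8 alpha-beta coreceptor are held to arise mainly from conventional T cells that met antigen elsewhere and then stayed, whereas gamma-delta and natural CD8 alpha-alpha cells reach the epithelium through a separate thymic route. Binding of the integrin CD103 (Itgae) to E-cadherin keeps such cells in place, CCR9 directs them to the small bowel, and granzymes with perforin give them their killing function.

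The deposited barcodes had 9 endings, which were read as 3 libraries with 1 ending for each genotype, the hashtag with the highest median naming the genotype. KO members numbered 375, 341 and 324 in libraries 1, 2 and 3, het members 340, 265 and 216, and WT members 82, 90 and 684. A genotype's summed counts in a library ranged from 437573 molecules (WT, library 1) to 3229818 (WT, library 3), so WT library 3 was by far the most deeply measured WT sum. The median cell held 4210 to 5480 molecules across the 9 sums. Over all cells of the endings assigned to WT, the WT hashtag led in 84.2% in library 1 and 72.5% in library 2, against 99.97% to 100% in the other endings. Among WT members it led in 82 of 82 in library 1 and 89 of 90 in library 2. A stricter rule asked for at least 10 hashtag molecules, at least 80% of them from the cell's own genotype. This rule kept 66.0% of the members of KO library 3 and 88.3% to 100% of those of the other sums. The 3 endings of a library shared 0 cell barcodes, and 139 barcodes occurred in more than 1 library, of which 1 was among the members. St8sia6 itself was almost undetected: 4 molecules lay in 2 of 1040 KO members, 5 in 3 of 821 het members and 0 in 856 WT members, which allows a share of up to 0.350% of WT members with a molecule (3 counts) and sets no limit on cells that express the gene. At this depth the targeted gene could not serve as a check of the genotype labels.

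The gate's own genes are no finding, and their values are given only to show its edges. Of the 2717 members, 462 held exactly 1 Cd8b1 molecule and 2255 held at least 2. Gzmk, one of the markers proposed for these cells, was found in 48.1% of members with 1 Cd8b1 molecule, in 57.9% of those with more and in 28.1% of 1664 cells just outside the gate, which held Cd8a but no Cd8b1. Cd6 was found in 74.7%, 79.6% and 27.5% of the same groups, and the gamma chain constant gene Tcrg-C1 in 10.2%, 9.27% and 32.2%. Cells with 1 Cd8b1 molecule thus lay near the other members and apart from the cells without it, at median depths of 3998.5, 5077 and 4445 molecules. The Epcam limit removed 25.2%, 22.9% and 30.1% of otherwise matching cells in libraries 1, 2 and 3. B cells of the same fraction (at least 2 Cd79a molecules and no Cd3e), which do not express Epcam, held an Epcam molecule in 29.4%, 23.1% and 35.5%, a share of like size. By genotype it removed between 18.0% (WT, library 1) and 33.9% (KO, library 3).

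Some genes of tissue residency and killing were found in most members and others in fewer. The chemokine gene Ccl5 was found in 98.2% of members at 19779 to 27441 CPM (molecules of a gene per 1000000 counted) across the 9 sums, and the granule gene Nkg7 in 98.9%. Gzma, which encodes granzyme A, was found in 87.2% of members and Gzmb, which encodes granzyme B, in 81.7%. The same genes were found in 19.9% to 33.9% (Gzma) and 4.17% to 6.61% (Gzmb) of B cells, at median depths of 3934 to 4465 molecules, as a measure of free RNA. The CD103 gene Itgae was found in 94.0% of members against 2.31% to 3.46% of B cells. Ccr9 was found in 61.9% of members, the residency-associated chemokine receptor gene Cxcr6 in 39.4% and the T-bet gene Tbx21 in 42.8%. Prf1, which encodes perforin, was found in 26.7% and Ifng in 23.4%. The proposed markers were present in most members: Cd8a in 98.3%, Themis in 84.7%, Ccl4 in 82.9%, Cd6 in 78.7% and Gzmk in 56.2%, with Gzmk and Cd6 each in at most 0.826% of B cells, Themis in at most 1.39%, Cd8a in at most 3.31% and Ccl4 in at most 4.96%. The markers thus set members apart from B cells. Cd6, Ccl4 and Themis are not particular to members. The CD4 CD8 alpha-alpha double-positive T cells of the same epithelium held Cd6 in 91.0%, Ccl4 in 86.8%, Themis in 85.7% and Gzmk in 44.2% of cells. Of these 996 pooled cells 547 came from het library 2. Over the 9 double-positive sums the medians were 87.8%, 80.0%, 80.2% and 30.6%. Gzmk ranged from 23.5% to 70.6% there, against 50.9% to 64.5% with a median of 56.1% in members. Against these cells the label rests on the lack of Cd4, which the gate used. The double-positive gate asked for Cd4 and Cd8a and set no limit on Cd8b1. Of the cells with Cd3e and Cd8b1, 161 held a Cd4 molecule. How many of them lay in the double-positive group was not counted. Ccr7, Pdcd1, Eomes and Fcer1g were found in 1.84%, 3.39%, 3.75% and 5.37% of members, and the plasma cell gene Igha in 6.99%.

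A small number of members differed from the rest. The genes Ccr7, Lef1, S1pr1 and Klf2 mark T cells that recirculate through lymph nodes, and 60 members held molecules of at least 2 of these 4, which were chosen after the data had been seen. Their median depth was 5993 molecules, against 4915 in the other 2657. Gzma was at 1523, 84.7 and 181 CPM in the 60 cells of libraries 1, 2 and 3, against 12205, 11451 and 14753 CPM in the rest. Gzmk was at 35.4, 54.4 and 38.8 CPM in the 60 cells, against 279, 307 and 252 CPM. Itgae was at 223, 502 and 207 CPM, against 899, 968 and 950 CPM. All 3 genes were lower in the 60 cells in each library, without overlap. Ccr9 showed no such gap, with 248, 309 and 324 CPM in the 60 cells and 263, 299 and 239 CPM in the rest. Tcf7, a transcription factor of naive and memory T cells that was not used to choose them, was at 455, 290.4 and 376 CPM, against 115, 111 and 76.4 CPM. These values describe cells chosen by their own counts and carry no test.

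**Figure D1:**
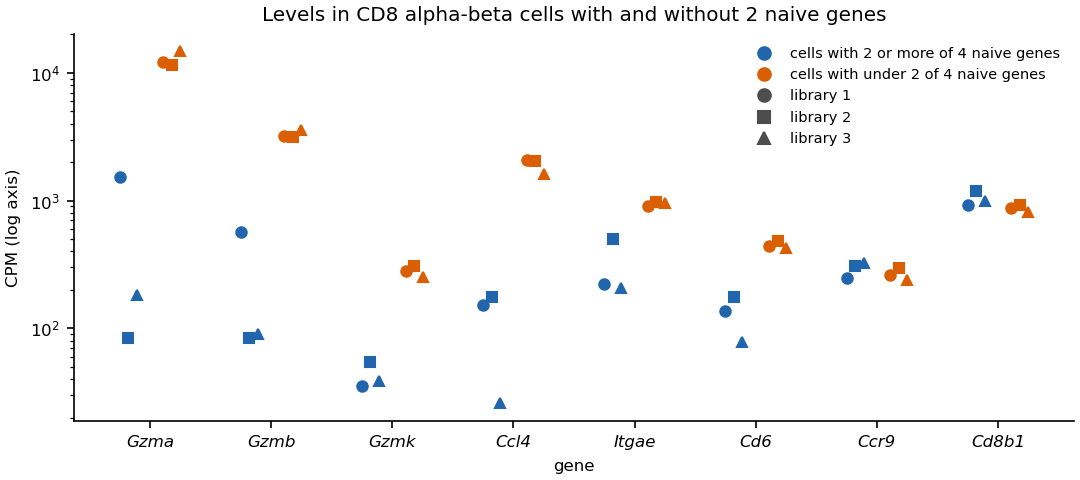
Levels of 8 genes in CD8 alpha-beta cells with at least 2 of 4 naive genes (blue, 60 cells) and in the other 2657 members (orange), as CPM on a log axis, 1 point per library. The granzyme genes, Ccl4, Itgae and Cd6 lie lower in the 60 cells in each library, and Ccr9 does not.

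The share of members with at least 2 of these genes was 3.73%, 1.76% and 1.23% in KO libraries 1, 2 and 3, 4.41%, 3.02% and 2.78% in het, and 2.44%, 1.11% and 0.585% in WT. KO averaged 2.24% ± 1.32, het 3.40% ± 0.882 and WT 1.38% ± 0.956 (SD, n = 3 each). Each KO and each het value lay above the WT value of its own library, and het values did not overlap those of WT. The WT values rest on 2 of 82, 1 of 90 and 4 of 684 members. Their exact 95% binomial intervals were 0.297% to 8.53%, 0.0281% to 6.04% and 0.160% to 1.49%. These intervals held the KO and het values of the same library, except that of het library 3. A two-sided exact permutation test gave p = 0.5 for KO against WT and p = 0.1 for het against WT, and 0.1 is the smallest p that 3 against 3 allow. Members with molecules of both proliferation genes Mki67 and Top2a numbered 42, with a median depth of 7053 molecules. They made up 2.08% ± 0.748 of KO, 1.34% ± 0.910 of het and 1.52% ± 0.793 of WT members (SD, n = 3 each), with p = 0.5 for KO and p = 1 for het against WT in the same exact permutation test.

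Beta chain usage differed from sum to sum. The variable genes of the T cell receptor beta chain (Trbv) mark clonal origin in part, since cells of a clone share one. A Trbv molecule was found in 81.5% to 92.7% of the members of a sum, out of 35 Trbv genes in the files. Trbv19 led in KO library 1 with 20.1% of these cells, Trbv29 in KO library 2 with 18.1% and Trbv16 in KO library 3 with 28.5%. In het, Trbv13-1 led in library 1 with 11.3%, Trbv16 in library 2 with 29.8% and Trbv13-1 in library 3 with 15.3%. In WT, Trbv12-2 led in library 1 with 18.4%, Trbv3 in library 2 with 14.3% and Trbv16 in library 3 with 18.0%. No single gene led in all libraries of a genotype. Trbv16 ranged from 3.55% to 29.8% over the 9 sums and Trbv19 from 2.05% to 20.1%. The effective number of Trbv genes, the inverse of the summed squared shares, was 7.86 to 13.6. Among the CD4 CD8 alpha-alpha double-positive T cells of the same epithelium, Trbv13-3 alone took 90.6% in het library 2, where 547 of the 996 such cells lay.

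Members were then set against the other kinds of intraepithelial T cell, gated in the same way: 2423 gamma-delta cells (Trdc), 1230 natural CD8 alpha-alpha cells (Cd8a without Cd8b1) and 996 CD4 CD8 alpha-alpha double-positive cells (Cd4 and Cd8a). The last gate set no limit on Cd8b1, so that group may hold cells with CD8 alpha-beta. Counts were summed by genotype and library and tested with edgeR, with a Benjamini-Hochberg adjusted p under 0.05 as a call, leaving out the genes of the gates. Against gamma-delta cells 2180 of 10393 genes were called (21%), 1090 in each direction (10.5% each). Against natural CD8 alpha-alpha cells 1867 of 9456 were called (19.7%), 932 higher (9.86%) and 935 lower (9.89%) in members. Against double-positive cells 641 of 9102 were called (7.04%), 347 higher (3.81%) and 294 lower (3.23%), but without library 1 this count was 288 and without library 2 it was 341. With RLE size factors in place of TMM the double-positive comparison split into 294 higher and 330 lower. The median log2 difference over all tested genes was within 0.012 of 0 in each of the 3 comparisons. A gene can pass the filter on low counts through the kind where it is high, so gene lists were counted only over genes that passed it in each of the compared kinds alone, a limit set after the data had been seen. Of these genes 10.4% were called higher and 9.71% lower in members against gamma-delta cells (9391 genes), 9.67% and 9.41% against natural CD8 alpha-alpha cells (8777) and 4.15% and 3.86% against double-positive cells (6609).

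Genes that act close to the T cell receptor differed between members and gamma-delta cells in both directions. Cd5, an inhibitory coreceptor that scales with receptor signalling, was at 183, 278 and 399 CPM in members (lowest, median and highest of 9 sums) against 1.11, 3.63 and 8.64 CPM in gamma-delta cells. The groups did not overlap, and the log2 difference was 6.41 (SE 0.14, adjusted p = 1.13e-21). Cd6, a related coreceptor, was at 398, 452 and 511 CPM in members against 16.1, 43.3 and 60.8 CPM, a log2 difference of 3.43 (SE 0.10, adjusted p = 7.71e-19). The costimulatory receptor gene Cd28 was at 18.9, 35.3 and 56.0 CPM against 0, 0.831 and 8.74 CPM (log2 difference 4.62, SE 0.29, adjusted p = 3.82e-12). Cd5 and Cd28 were too low in gamma-delta cells to pass the filter there. Their values against these cells are therefore given as description and are not counted below. Of the 15 genes of receptor signalling that passed in both kinds, 9 were higher in members, among them the adaptor gene Lat (log2 difference 1.29) and Themis (0.80). The other 4 called genes were lower, namely Zap70, Cd3d, Cd3g and Trbc1. Against natural CD8 alpha-alpha cells 11 of 17 were higher and 3 lower, while against double-positive cells 5 were higher and 3 lower. Relative to double-positive cells Cd5 was lower in members, at 186, 280.2 and 398 CPM against 431, 527 and 759 CPM, a log2 difference of -1.02 (SE 0.08, adjusted p = 4.26e-09) without overlap.

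Natural killer receptor genes were low in members. Of 19 listed receptors and adaptors, 8 passed the filter in both members and gamma-delta cells, and 7 of these were lower in members. Against natural CD8 alpha-alpha cells 9 passed in both kinds and 7 were lower. In both comparisons the 7 were Klra3, Klra7, Klrd1, Klre1, Klrk1, Fcer1g and Tyrobp. Fcer1g, the signalling adaptor of several activating receptors, was at 16.1, 70.2 and 102 CPM in members, against 927, 1053 and 1247 CPM in gamma-delta cells (log2 difference -4.22, SE 0.16, adjusted p = 1.2e-16). Klrd1, which encodes CD94, was at 75.7, 180.2 and 292 CPM against 408, 661 and 883 CPM (log2 difference -1.92, SE 0.12, adjusted p = 1.37e-12). Neither gene's ranges overlapped between members and gamma-delta cells. Against double-positive cells 3 listed genes passed in both kinds, and Klrd1 alone was called, higher in members (log2 difference 0.89). Klrc1 was also called higher in members (2.62), but it did not pass the filter in each kind alone. The adaptor gene Clnk was at 8.57, 17.6 and 21.9 CPM in members against 259, 320.2 and 360.0 CPM in gamma-delta cells, and the Helios gene Ikzf2, a mark of the thymic intraepithelial lineages, at 127, 166 and 233 CPM against 712, 908 and 1047 CPM. Their log2 differences were -4.29 and -2.42 against gamma-delta cells and -4.01 and -2.50 against natural CD8 alpha-alpha cells, with adjusted p from 1.01e-22 to 3.36e-20.

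**Figure D2:**
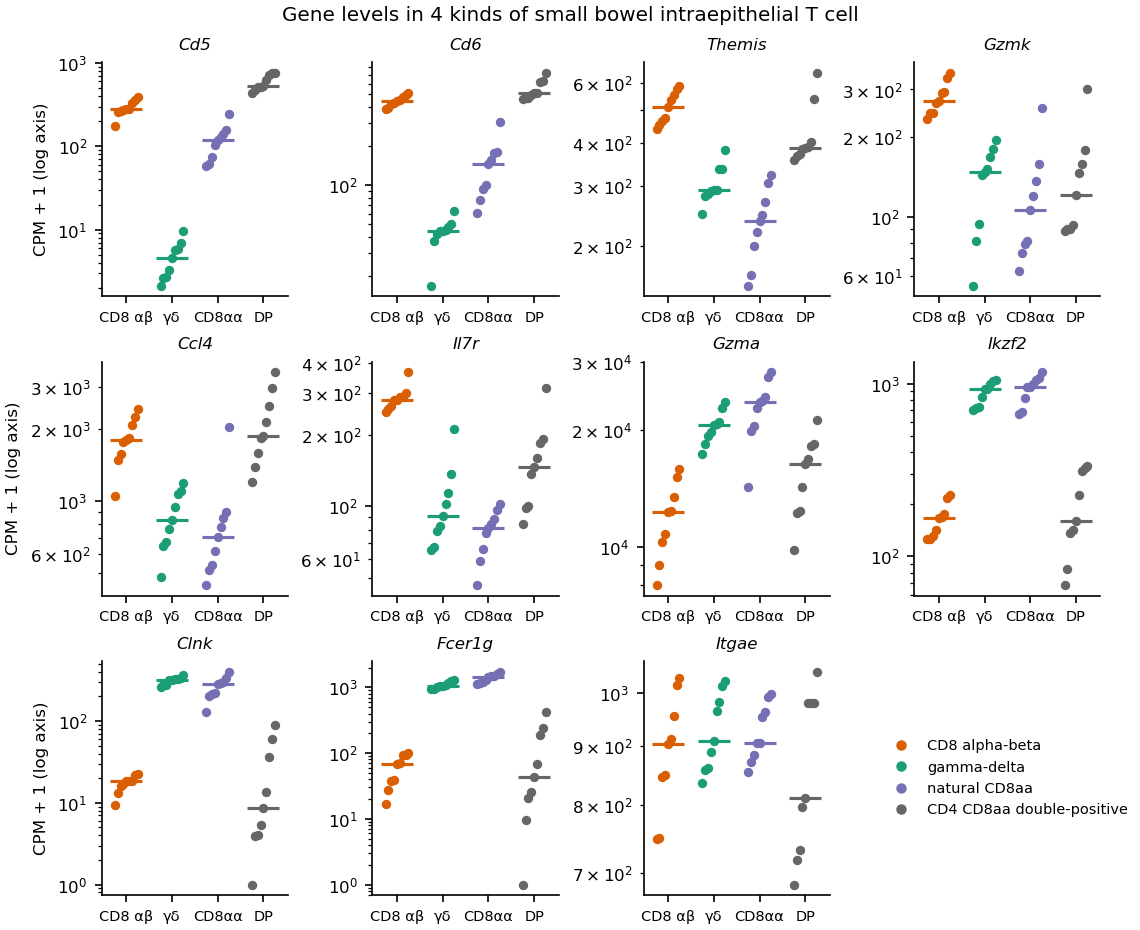
Levels of 11 genes in 4 kinds of small bowel intraepithelial T cell, as CPM plus 1 on a log axis. Points are the 9 sums of 3 genotypes and 3 libraries in each kind and bars are medians. Cd5 and Cd6 are lowest in gamma-delta cells, and Clnk, Ikzf2 and Fcer1g are low in CD8 alpha-beta and double-positive cells.

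Granule genes differed in both directions. Gzmk was at 235, 275 and 358 CPM in members against 55.0, 142 and 190.1 CPM in gamma-delta cells (log2 difference 1.13, SE 0.11, adjusted p = 8.91e-09), without overlap. Gzma went the other way, at 8170.1, 12583 and 16682 CPM in members against 17289, 20186 and 22912 CPM (log2 difference -0.75, SE 0.06, adjusted p = 1.09e-09), also without overlap. Against natural CD8 alpha-alpha cells the log2 differences were 1.41 for Gzmk and -0.91 for Gzma, and against double-positive cells 1.01 and -0.34. All of these were called, and Prf1, Srgn and the Fas ligand gene Fasl were called higher in members against gamma-delta and natural CD8 alpha-alpha cells. Ifng was at 45.0, 114 and 126 CPM in members against 10.3, 16.6 and 47.0 CPM in gamma-delta cells (log2 difference 2.04, SE 0.14, adjusted p = 1e-11). Relative to double-positive cells, at 122, 249 and 449.7 CPM, Ifng was lower in members (log2 difference -1.43, SE 0.12, adjusted p = 4.51e-09). The Ifng ranges overlapped in both comparisons. Itgae did not separate members from gamma-delta cells (log2 difference -0.00, SE 0.04, adjusted p = 0.973) or natural CD8 alpha-alpha cells (-0.01, SE 0.05, adjusted p = 0.906).

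Genes of naive and memory T cells were called higher in the sums of members. Of 9 genes 6 were called higher against gamma-delta cells, of 7 genes 7 against natural CD8 alpha-alpha cells, and of 7 genes 6 against double-positive cells. The 60 members described above, 2.21% of all, held much of some of these genes. They held 54.2% of the members' Klf2 molecules and 62.7% of those of Lef1, which were among the genes that chose them. Of genes that did not choose them they held 32.9% of Bach2, 19.2% of Satb1, 11.3% of Tcf7, 5.60% of Foxp1 and 3.24% of Il7r molecules. The interleukin 7 receptor gene Il7r was at 242, 285 and 377 CPM in members against 45.1, 80.1 and 103 CPM in natural CD8 alpha-alpha cells, without overlap (log2 difference 1.91, SE 0.09, adjusted p = 7.91e-16). Thy1, which encodes a surface protein of most T cells, was at 371, 453 and 543 CPM against 50.7, 119 and 181 CPM (log2 difference 1.96, SE 0.11, adjusted p = 2.78e-14). Interferon-stimulated genes were called higher for 11 of 16 against gamma-delta and 13 of 16 against natural CD8 alpha-alpha cells, including the immunoproteasome gene Psmb8 (log2 differences 0.35 and 0.38). MHC class I genes were called higher for 11 of 17 and 12 of 16, H2-K1 by 0.29 and 0.34. Against double-positive cells 4 of 15 interferon-stimulated genes were higher and 1 lower, and 1 of 13 MHC class I genes was higher. Among sialic acid and O-glycan enzymes, St8sia1 was called higher in members against gamma-delta and natural CD8 alpha-alpha cells. It was at 35.3, 47.9 and 78.2 CPM against 8.66, 19.0 and 33.1 CPM in gamma-delta cells (log2 difference 1.45, SE 0.16, adjusted p = 5.34e-08). Against double-positive cells 10 of these enzymes passed the filter in both kinds, of which St3gal6 alone was called, higher in members.

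Against double-positive cells fewer genes were called, and their sums were smaller, with 15, 10 and 38 cells in WT libraries 1, 2 and 3. The CD40 ligand gene Cd40lg was at 0, 9.70 and 26.5 CPM in members against 33.1, 163 and 255 CPM in double-positive cells, without overlap (log2 difference -4.14, SE 0.22, adjusted p = 1.12e-12). The transcription factor genes Maf, Rora and Runx1 were lower by log2 differences of -3.38, -1.14 and -0.98. Ms4a4b was at 309, 386 and 524 CPM in members against 92.1, 119 and 176 CPM (log2 difference 1.75, SE 0.12, adjusted p = 6.59e-11). Of 17 cell cycle genes 5 were lower in members, among them Mki67 (log2 difference -1.53). Hbb-bs and Hba-a1, genes of red blood cells, were also among those higher in members (log2 differences 6.69 and 6.31). They were found in only 1.14% and 0.478% of members, and the sums that held them are given with the genotypes.

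Between genotypes few genes differed. In members 17 of 9959 genes were called in KO against WT (0.171%), 5 higher (0.0502%) and 12 lower (0.12%), and 24 were called in het against WT (0.241%), 8 higher (0.0803%) and 16 lower (0.161%). KO against het gave 11 calls (0.11%), 4 higher (0.0402%) and 7 lower (0.0703%). KO and het were set against the same WT sums, so the first pair of comparisons is not independent. Library 3 carried much of both counts, since without it 5 genes were called in each, and only 4 of the 17 KO and 2 of the 24 het calls remained. With no block for the library 9 genes were called in KO against WT, 9 in het against WT and 0 in KO against het. A test of whether the KO effect differed between members and gamma-delta cells called 4 of 10398 genes (0.0385%).

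None of the 6 proposed markers was called between genotypes. Gzmk averaged 254 ± 20.2 CPM in KO, 290.4 ± 43.0 CPM in het members and 299 ± 52.7 in WT (SD, n = 3 each), with a log2 difference of -0.20 (SE 0.12, edgeR adjusted p = 0.793) in KO against WT. Cd6 was at 445, 478 and 459 CPM in KO libraries 1, 2 and 3, 424, 428 and 481 in het and 395, 501 and 398 in WT, and the groups overlapped. Ccl4, a chemokine gene, averaged 1927 ± 445 CPM in KO, 2038 ± 238 CPM in het members and 1457 ± 354 in WT (log2 difference 0.40, SE 0.15, edgeR adjusted p = 0.515 for KO against WT). Cytotoxic granule genes gave 0 calls of 13 in KO against WT and 0 in het against WT, and effector cytokine genes 0 of 9 in each of the 3 comparisons. The 12 naive and 14 sialic acid genes that were tested also gave 0 calls in each. Gzma was called in KO against het, at 12395, 13036 and 15429 CPM in KO and 10963, 8010.2 and 9104 CPM in het, with no overlap (log2 difference 0.54, SE 0.10, adjusted p = 0.0332). WT values of 12703, 10179 and 16418 CPM overlapped both, and the call was lost without library 2, without library 3, with no library block and with DESeq2.

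Of 11 tested heat-shock genes, which encode chaperones that refold proteins and are induced by heat and other stress, 3 were lower in KO than in WT. Over all tested genes 0.12% were called lower in KO. Hspa1b, an inducible HSP70, was at 3.06, 1.47 and 1.96 CPM in KO libraries 1, 2 and 3, 12.0, 7.19 and 15.8 CPM in het and 35.3, 45.1 and 62.0 CPM in WT. The genotypes did not overlap, with KO lowest and het between KO and WT. The log2 difference was -4.38 in KO against WT (SE 0.32, adjusted p = 1.58e-07), -2.05 in het against WT (SE 0.26, adjusted p = 0.000721) and -2.34 in KO against het (SE 0.40, adjusted p = 0.0313). Its KO against WT call remained under each of 11 alternatives, its het call was lost without library 3, and its KO against het call was lost without any 1 of the 3 libraries. Hspa1a, its near-identical neighbour with which reads may be exchanged, was at 7.15, 0.983 and 0 CPM in KO, 1.15, 9.15 and 10.5 in het and 4.70, 23.6 and 40.9 in WT, and was not called (adjusted p = 0.0813). Dnajb1, a cochaperone of the HSP40 family, was at 96.5, 78.6 and 66.0 CPM in KO, 115, 181 and 132 in het and 127, 180.5 and 165 in WT. All KO values lay below all het and WT values, with a log2 difference of -1.02 against WT (SE 0.16, adjusted p = 0.00472) and -0.80 against het (SE 0.15, adjusted p = 0.0332). Without library 3 the Dnajb1 call against WT was lost (adjusted p = 0.535), and the call against het was lost without library 2 or 3.

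Hsph1, which encodes HSP110, was at 76.1, 124 and 64.0 CPM in KO, 104, 233 and 100.2 in het and 106, 191 and 135 in WT. KO was lowest within each library, although the groups overlapped, with a log2 difference of -0.80 against WT (SE 0.14, adjusted p = 0.0116) and -0.70 against het (SE 0.13, adjusted p = 0.0313). Dnaja1, another HSP40 cochaperone, was at 374, 443 and 342 CPM in KO, 517, 829.7 and 512 in het and 518, 440.5 and 447 in WT. It was called in KO against het (log2 difference -0.67, SE 0.11, adjusted p = 0.0313) but not against WT (-0.30, SE 0.12, adjusted p = 0.556). Over the list, 1 gene was lower in het than in WT and 4 were lower in KO than in het. The median log2 difference of the 11 was -0.30 in KO against WT, 0.09 in het against WT and -0.48 in KO against het, beside medians within 0.003 of 0 over all genes. The Hsph1 call against WT was lost without library 3 and its call against het without library 2, and the Dnaja1 call was lost without library 3. Cacybp, which encodes a calcyclin-binding protein and is not in the list, had called log2 differences of -0.63 against WT and -0.60 against het in KO, both lost without library 1 or 3.

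The promoters of the called heat-shock genes are shown because heat-shock factor binds inverted repeats of GAA. They are the 150 bases before the first start that RefSeq lists (GRCm38.p6), with each match to GAANNTTC or TTCNNGAA in capitals.
Hspa1b promoter, chr17:34959239-34959388 (minus strand): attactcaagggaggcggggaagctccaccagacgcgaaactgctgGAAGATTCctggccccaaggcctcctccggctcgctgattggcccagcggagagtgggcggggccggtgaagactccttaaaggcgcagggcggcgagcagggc
Hsph1 promoter, chr5:149636337-149636486 (minus strand): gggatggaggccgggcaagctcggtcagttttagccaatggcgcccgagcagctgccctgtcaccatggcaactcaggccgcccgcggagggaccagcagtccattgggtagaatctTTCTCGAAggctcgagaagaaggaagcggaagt
Dnaja1 promoter, chr4:40722318-40722467 (plus strand): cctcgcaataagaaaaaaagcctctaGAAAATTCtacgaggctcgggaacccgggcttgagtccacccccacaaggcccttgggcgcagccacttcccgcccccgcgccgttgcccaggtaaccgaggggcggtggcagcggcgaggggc
Dnajb1 promoter, chr8:83608025-83608174 (plus strand): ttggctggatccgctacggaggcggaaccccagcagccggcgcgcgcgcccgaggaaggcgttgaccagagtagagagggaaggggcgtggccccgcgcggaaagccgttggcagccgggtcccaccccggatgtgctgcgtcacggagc
Both motifs read the same on either strand. A match began 104 bases before the start in Hspa1b, 33 in Hsph1 and 124 in Dnaja1, and the Dnajb1 window held none. Of 32851 promoter windows of this length 7.73% held either motif. These matches describe the letters and are no evidence of binding.

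**Figure D3:**
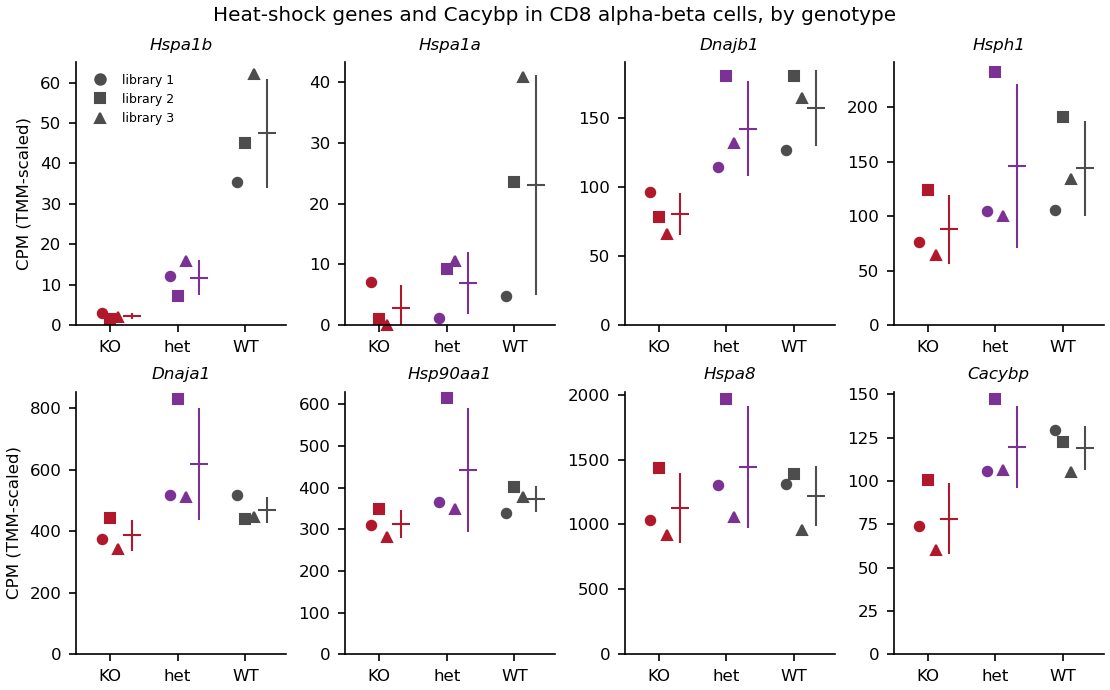
Levels of 7 heat-shock genes and Cacybp in CD8 alpha-beta cells as TMM-scaled CPM, by genotype, 1 point per library with the mean and SD beside them (n = 3). Hspa1b lies at 1.47 to 3.06 in KO, 7.19 to 15.8 in het and 35.3 to 62.0 in WT, and Dnajb1 at 66.0 to 96.5 in KO.

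Of 17 tested MHC class I genes, which encode the molecules that present peptides to CD8 T cells and their helpers, 3 were lower in KO than in WT, and 2 were higher and 2 lower in het than in WT. Over all tested genes 0.12% were called lower in KO, and 0.0803% were called higher and 0.161% lower in het. H2-D1, a classical class I gene, was at 2296, 2305 and 2139 CPM in KO, 2349, 2359.7 and 2115 in het and 3178, 3747 and 2772 in WT. KO and het overlapped each other and lay wholly below WT (log2 differences -0.51, SE 0.07, adjusted p = 0.00172 in KO and -0.50, SE 0.07, adjusted p = 0.0029 in het). H2-K1, the other classical gene, averaged 2553 ± 74.0 CPM in KO, 2601 ± 94.7 CPM in het members and 2511 ± 127 in WT (log2 difference 0.03, SE 0.06, edgeR adjusted p = 0.997 for KO against WT). H2-Q2 was at 5.11, 5.90 and 7.84 CPM in KO, 4.59, 5.23 and 5.27 in het and 32.9, 73.1 and 26.8 in WT (log2 differences -2.69 in KO and -3.01 in het, adjusted p = 0.000419 and 0.000559). H2-T3, which encodes the thymus leukaemia antigen, a nonclassical molecule that binds CD8 alpha-alpha, was at 2.04, 1.97 and 2.61 CPM in KO, 3.44, 4.58 and 4.22 in het and 18.8, 21.5 and 13.7 in WT. WT was highest for both genes without overlap, and H2-T3 was called in KO (log2 difference -2.93, SE 0.47, adjusted p = 0.00493) but not in het (-2.07, SE 0.45, adjusted p = 0.0616). H2-Q6 and H2-Q7 were called higher in het (0.55 and 0.49) and not in KO (0.19 and 0.20). Without library 3 the H2-D1 calls and those of H2-Q6 and H2-Q7 were lost, the H2-Q6 and H2-Q7 calls were also lost without library 2, and the H2-T3 call was lost without any 1 of the libraries. In KO against het 0 of the 17 genes were called. Genes of this family are near-identical copies, so the split of reads between them is uncertain.

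Several of the called genes lay near each other. Of the 17 genes called in KO against WT, 5 lay on chromosome 17, where 529 genes were tested (0.945%), namely Hspa1b at 34.96 Mb, H2-D1 at 35.26, H2-Q2 at 35.34, BC023719 at 36.11 and H2-T3 at 36.19. In het against WT 10 of 24 lay there (1.89% of the 529 tested), between 30.63 and 36.14 Mb. Chromosome 8, also with 529 tested genes, held 3 calls in KO (0.567%) and 4 in het (0.756%), Mtus1 in both. Over all tested genes 0.171% were called in KO and 0.241% in het against WT. St8sia6 lies on chromosome 2. BC023719 was at 0, 0.491 and 0 CPM in KO, 0 in each het library and 21.2, 17.2 and 10.2 in WT, and Mtus1, which encodes a microtubule-associated protein, at 4.60, 0.983 and 4.57 CPM in KO, 1.15, 1.96 and 6.33 in het and 18.8, 15.0 and 38.7 in WT. Both were called lower in KO and in het, and both calls were lost without library 3. Gm10260, listed in RefSeq as the Rps18 pseudogene Rps18-ps6 on chromosome 13, was at 3.57, 9.33 and 6.53 CPM in KO, 6.31, 9.15 and 8.43 in het and 797, 728 and 429 in WT (log2 differences -6.64, SE 0.18, adjusted p = 4.29e-15 and -6.41, SE 0.19, adjusted p = 1.62e-14). Rps18, the ribosomal protein gene on chromosome 17, ran opposite at 2099.8, 1844 and 1988 CPM in KO, 2129, 1989.6 and 2052 in het and 1602, 930.4 and 1697 in WT, called in het (log2 difference 0.56, SE 0.11, adjusted p = 0.0291) and not in KO (0.49, SE 0.11, adjusted p = 0.068). The Rps18 call was lost without library 1 or 3, and reads of this gene and its copy cannot be assigned with certainty.

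Of the remaining calls, those of Nr4a2, Nr4a3 and Rora were higher than in WT. Nr4a2, an orphan nuclear receptor induced by receptor signalling, was at 566, 538 and 423 CPM in KO, 603, 510.0 and 519 in het and 369, 376 and 351 in WT. Both KO and het lay wholly above WT (log2 differences 0.45, SE 0.09, adjusted p = 0.0428 and 0.55, SE 0.09, adjusted p = 0.00614). Its relative Nr4a3 was at 124, 144 and 86.2 CPM in KO, 103, 175 and 141 in het and 54.1, 75.2 and 64.2 in WT, called in het (1.01, SE 0.16, adjusted p = 0.0061) and just missed in KO (0.80, SE 0.16, adjusted p = 0.0505). In het the early response gene Fosb (log2 difference 0.92), the stress phosphatase subunit gene Ppp1r15a (0.73) and the NF-kappa-B brake Tnfaip3 (0.59) were also called higher. Of 15 immediate early genes Fosb alone was called in het against WT and 0 in KO against WT. Rora, which encodes a nuclear receptor of innate-like lymphocytes, was at 237, 189 and 215 CPM in KO, 206, 188 and 179 in het and 134, 139.7 and 131 in WT, called in KO (0.66, SE 0.10, adjusted p = 0.00493) and not in het (0.50, SE 0.11, adjusted p = 0.0593). Rgs1, a brake on chemokine receptor signalling, was lower in both, at 1673, 1744 and 1555 CPM in KO, 1529.6, 1735 and 1533 in het and 2284, 2018 and 2096 in WT (log2 differences -0.37, SE 0.07, adjusted p = 0.0428 and -0.42, SE 0.07, adjusted p = 0.00975). All calls of this paragraph were lost without library 3, and those of Nr4a2, Rora, Rgs1 and Tnfaip3 also without library 1. Without library 2 the Nr4a2 call in KO and the Nr4a3 call in het were lost. None of these genes was called in KO against het, where Fosb had the smallest adjusted p (0.568).

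**Figure D4:**
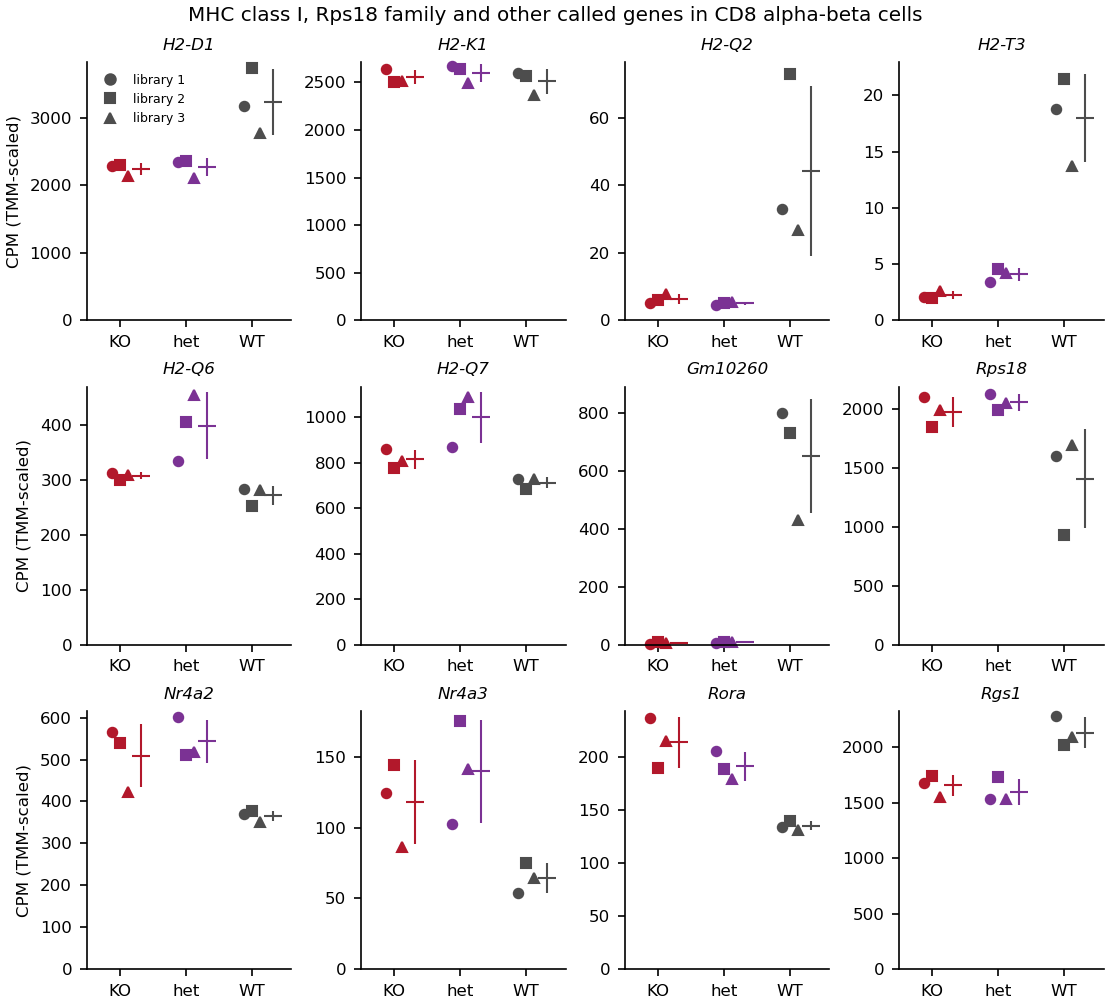
Levels of MHC class I, Rps18-family and 4 further genes in CD8 alpha-beta cells as TMM-scaled CPM, by genotype, 1 point per library with the mean and SD beside them (n = 3). WT lies apart from KO and het for H2-D1, H2-Q2, H2-T3, Gm10260, Nr4a2, Rora and Rgs1, and H2-K1 overlaps.

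The red blood cell genes among the calls came from 3 of the 9 sums. Hbb-bs, a beta globin gene, was at 1.53, 141 and 916 CPM in KO, 2.29, 396 and 2.11 in het and 0, 4.30 and 7.03 in WT, and Hba-a1 at 1.53, 35.9 and 252 CPM in KO, 0, 112 and 1.05 in het and 0, 0 and 1.28 in WT. KO libraries 2 and 3 and het library 2 were high, and the other 6 sums were at 7.03 CPM or below for both genes. The high values rested on few cells. Hbb-bs was found in 4 of 341 members of KO library 2, 5 of 324 of KO library 3 and 3 of 265 of het library 2. Hba-a1 was found in 3, 2 and 3 members of the same sums. Both were called in KO against WT (log2 differences 6.29 and 6.98, adjusted p = 0.0272 each) and lost without library 1, Hba-a1 also without library 3. The 4 red cell markers summed to 3.57, 209 and 1415 CPM in KO (lowest, median and highest library), 2.82, 4.17 and 624 in het and 2.29, 4.34 and 9.29 in WT. Plasma cell markers summed to 21.3, 42.8 and 440.1 CPM in KO, 30.7, 46.3 and 106 in het and 36.6, 74.3 and 165 in WT. Epithelial markers overlapped between genotypes, from 343 to 635 CPM in KO, 322 to 712 in het and 386 to 679 in WT. The part of these foreign transcripts in the other genotype results was not tested.

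A difference between genotypes in the share of members was not shown. Within the epithelial fraction, members made up 18.8%, 21.4% and 19.5% of cells under 20% mitochondrial counts in KO libraries 1, 2 and 3. The shares were 17.8%, 10.1% and 17.9% in het and 7.04%, 6.28% and 21.96% in WT. KO averaged 19.9% ± 1.33, het 15.3% ± 4.49 and WT 11.8% ± 8.84 (SD, n = 3 each). KO exceeded WT in libraries 1 and 2 and not in library 3, where WT was highest of all. A two-sided exact permutation test gave p = 0.4 for KO and p = 0.8 for het against WT. Of cells with a Cd3e molecule, members were 21.9%, 24.7% and 21.1% in KO, 20.5%, 11.2% and 20.1% in het and 15.9%, 12.2% and 29.1% in WT. On this base KO minus WT was 3.49 percentage points and het minus WT -1.81 points.

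**Figure D5:**
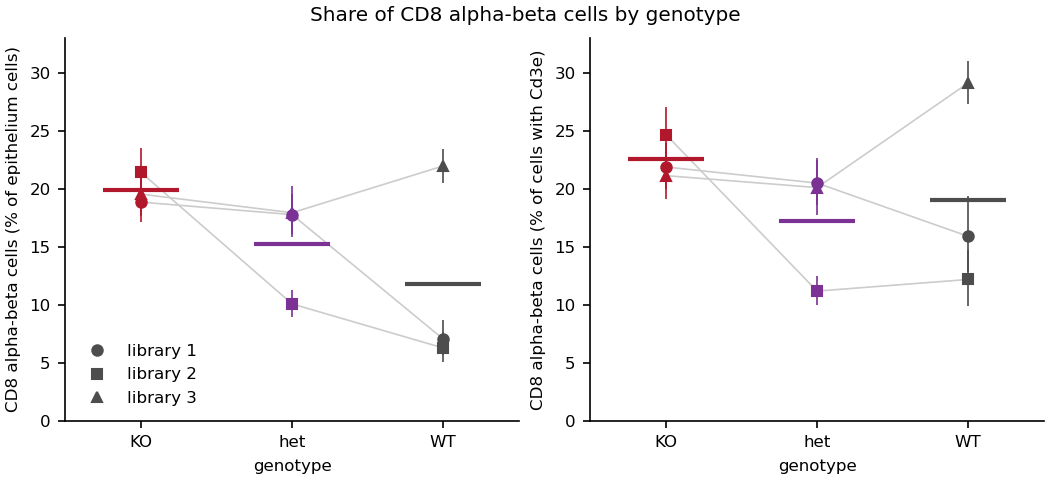
CD8 alpha-beta cells as a percentage of epithelial cells and of cells with a Cd3e molecule, by genotype. Points are libraries with exact 95% binomial intervals, grey lines join the genotypes of a library, and horizontal bars are means (n = 3). WT library 3 lies at 21.96% of cells, against 7.04% and 6.28% in the other WT libraries.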

How the data were processed

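Gene and hashtag values are raw counts of molecules (UMI counts) per cell, as deposited by the authors. Files with a unit recorded as other hold the deposited names of genes, hashtags and barcodes. Per the submitters' processing notes Cell Ranger, Seurat and mm10 were used, with versions not given in the sources used here. Per the labels' design text, cells outside 200 to 8000 genes or 300 to 50000 molecules had been filtered out. So had cells with 20% or more mitochondrial counts, but that filter still removed 280 cells of the epithelial fraction. No doublet caller was run.

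Member counts were summed per genotype and library. All 9 sums entered 1 quasi-likelihood fit in edgeR 4.0.16 (R 4.3.3; TMM, filterByExpr), with DESeq2 1.42.0 as an alternative. The library was a block because the genotypes of a run were handled together; deviations of same-library sums correlated at 0.0515 to 0.181. The SE is the log2 difference over the root of F. CPM in gene comparisons is TMM-scaled, and in the description of members plain. Kinds of cell were compared over 9 sums each. A call is an adjusted p under 0.05. The p-values of edgeR measure the spread left after the block, which for kinds was genotype and library together. The permutation tests used 1 share per genotype and library, without a block. Intervals and floors cover counting error only. Named genes are St8sia6, the 6 markers, list members and, per comparison and direction, the 12 called genes with the smallest p, without receptor and immunoglobulin variable genes. Members and lists were chosen with earlier results of these data known. The tests were also run on simulated counts with planted changes. These held no library effect, so they cannot check the library block or the dependence on library 3. Positions and promoters are from RefSeq GRCm38.p6, where 9815 of 9959 tested symbols matched. The files name genes by symbol. Analysis used python 3.11.15, numpy 2.4.6, pandas 2.3.3, scipy 1.17.1 and matplotlib 3.10.9.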

Additional observations from a re-analysis of the deposited data

Results flagged for a closer look

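The KO effect (KO against WT) was compared between CD8 alpha-beta and gamma-delta cells by an interaction in edgeR, and 4 of 10398 genes (0.0385%) differed at an adjusted p under 0.05. Igkv1-88, an immunoglobulin light chain variable gene, had a difference of 7.39 on the log2 scale. In library 3 it had 1011 molecules in KO, 4 in het and 19 in WT members, against 7, 1 and 14 in gamma-delta cells, and 0 in both kinds in libraries 1 and 2. Plasma cell markers were also highest in KO library 3 members, at 440.1 CPM, and their part in this value was not tested. Klra1, a natural killer receptor gene, had a difference of -11.77, with 2, 0 and 0 molecules in KO members and 0, 0 and 8 in WT members of libraries 1, 2 and 3, against 427, 43 and 1 in KO and 0 in all WT gamma-delta cells. Tcrg-V5, a gamma chain variable gene, had a difference of -6.74, with 0, 1 and 0 molecules in KO members and 0, 0 and 33 in WT members, against 19, 15 and 4 in KO and 1, 1 and 4 in WT gamma-delta cells. Klre1, another natural killer receptor gene, had a difference of -3.62, with 11, 5 and 1 molecules in KO members and 3, 2 and 11 in WT members, against 380, 81 and 41 in KO and 10, 21 and 16 in WT gamma-delta cells. Of these 4 calls 1 remained without library 1, 3 without library 2 and 0 without library 3, where 5 genes were called in all. The fitted values of Klra1, Igkv1-88 and Tcrg-V5 rest on sums at or near 0 and are no measure of size, and that of Tcrg-V5 ran from -8.25 to -1.22 with 1 library left out.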

How the results depend on the processing

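In KO against WT, where 17 genes were called, the count was 109 with no filter on low counts, 9 with no replicate block for the library, 34 without the 5% of members with most molecules and 5 to 24 when 1 library was left out. In het against WT (24) the same settings gave 139, 9, 40 and 5 to 24, and at least 2 Cd8b1 molecules gave 37. In KO against het (11) they gave 82 with no filter, 0 with no replicate block in edgeR (393 at an unadjusted p under 0.05) and 5 to 18 with 1 library left out. KO against het also gave 24 with genotype by hashtag share, 1 with Epcam-positive cells kept (an alternative chosen after seeing the data) and 2 with DESeq2. DESeq2 called 20 genes in KO against WT, 10 in each direction, of which 12 were among the 17. The cause was not tested. Against gamma-delta and natural CD8 alpha-alpha cells the counts were within 1.5 times under the 6 alternatives run, and the 24 named genes of each stayed called. The double-positive count ran from 288 to 511 with 1 library left out, and the interaction count from 3 to 12.

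The share difference between KO and WT kept its sign under 7 alternatives, ranging from 3.49 to 13.5 percentage points. That between het and WT (3.49) was -0.118 without library 1 and 7.26 without library 3, -1.81 as a share of Cd3e cells and -2.49 with genotype by hashtag share. Of the values of single genes, 821 kept their side of the threshold, 173 lost it and 0 changed direction. All 173 losses were of genotype and interaction calls. The named genes of the cell-kind comparisons kept every call where they were tested, so the pooled count overstates how stable the genotype calls were. WT libraries 1 and 2, with 82 and 90 members, limit what could be seen: 1 molecule is 2.29 CPM in WT library 1, and levels near that could not be compared.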

Other observations

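Receptors that restrain T cells divided between the kinds. Of 12 inhibitory receptor and Tox genes that passed the filter in both kinds, 3 were called higher and 6 lower in CD8 alpha-beta than in gamma-delta cells. Of all genes that passed in both, 10.4% were called higher and 9.71% lower. Ctla4, which encodes a competitor of CD28, was at 192, 234 and 337 CPM in CD8 alpha-beta cells (lowest, median and highest of 9 sums) against 56.1, 79.9 and 120.0 CPM in gamma-delta cells (log2 difference 1.57, SE 0.09, adjusted p = 1.88e-13). Lag3, which encodes a receptor for MHC class II, was at 45.2, 64.3 and 115 CPM in CD8 alpha-beta cells against 116, 172 and 202 CPM in gamma-delta cells (log2 difference -1.24, SE 0.09, adjusted p = 1.17e-10). Both genes separated the kinds without overlap, in opposite directions. Tox, a transcription factor of chronically stimulated T cells, was lower in CD8 alpha-beta cells (log2 difference -0.60), as was Tigit (-0.75).

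Among 18 genes of gut homing and residency, 9 were called higher and 4 lower than in gamma-delta cells, and 10 higher and 4 lower than in natural CD8 alpha-alpha cells. Of all genes that passed the filter in both kinds, 10.4% were higher and 9.71% lower against gamma-delta cells. Against natural CD8 alpha-alpha cells these shares were 9.67% and 9.41%. Itga4, the integrin chain that pairs with Itgb7 for entry into the gut, was at 161, 196 and 276 CPM in CD8 alpha-beta cells against 82.1, 101 and 139 CPM in gamma-delta cells, without overlap (log2 difference 0.94, SE 0.07, adjusted p = 2.45e-10). Ccr9, a chemokine receptor for homing to the small bowel, was at 239.7, 266 and 352 CPM in CD8 alpha-beta cells against 131, 165 and 205 CPM in natural CD8 alpha-alpha cells (log2 difference 0.70, SE 0.07, adjusted p = 1.25e-08), also without overlap. Of 11 heat-shock genes 6 were higher and 1 lower than in gamma-delta cells, and 7 were higher than in natural CD8 alpha-alpha cells.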
